A study of Homo sapiens with 6 samples.

Results

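DNA replication and G1/S genes are the genes a cell switches on as it leaves G1 and copies its DNA. A list of 39 of them was followed here, each by the probe set with the highest mean signal among those annotated with that gene symbol alone. All 39 were measured, out of 13679 genes tested and 19775 with a probe set of their own on the array. The cells were MDA-MB-231, an established line from a human breast cancer that lacks hormone receptors and HER2. They had been exposed for 48 h to 50 µM TCI04, a code name for which the labels give no structure, or for the same 48 h to phosphate-buffered saline (PBS) as the control. Each group held 3 Affymetrix arrays of total RNA. Nothing in the labels ties an array to its own culture, and p-values therefore reflect only array-to-array spread, possibly technical. The data describe 1 cell line at 1 dose and 1 time.

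Replication is prepared in G1, when the origin recognition complex, CDC6 and CDT1 load the ring of MCM2 to MCM7 onto DNA. Cyclin E and its kinase partner then release the E2F transcription factors from the retinoblastoma protein. E2F raises transcription of the helicase, the polymerases and the enzymes that supply nucleotides, and CDC45 and GINS join the MCM ring to make the working helicase. In cultured tumour cells the level of these transcripts depends in part on how many cells are in late G1 and S phase. In bulk RNA, fewer cells in S phase and less transcript per cell cannot be told apart.

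Matches to the letters of the E2F consensus are shown first, as a description of the promoters. The list holds genes of the kinds named above as raised by E2F, so the share with a match is not independent of its choice. RefSeq promoter sequences (GRCh38.p14, from 250 bases before to 50 bases after each start site) matched 35 of the 39 genes, and MCM4, MCM5, GINS4 and CCNE2 are not included. The windows were searched on both strands for TTTCGCGC, TTTGGCGC, TTTCCCGC and TTTGCCGC, the forms of the E2F consensus, counting overlapping matches. Such a match was present in 19 of 35 genes (54.3%), against 3.31% of all 35116 promoter windows and 5.4% of 15843 protein-coding genes. Stretches with the match in capitals are given for the E2F1 gene itself, for helicase and licensing genes, for PCNA and TYMS, and for UNG, whose values are taken up again in the comparison of the groups.
E2F1 (chr20:33686382-33686434, minus strand): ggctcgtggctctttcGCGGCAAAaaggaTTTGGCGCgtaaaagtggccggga
CDC6 (chr17:40287870-40287908, plus strand): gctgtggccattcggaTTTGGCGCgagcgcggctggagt
MCM2 (chr3:127598397-127598440, plus strand): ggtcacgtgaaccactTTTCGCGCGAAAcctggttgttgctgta
MCM3 (chr6:52284723-52284762, minus strand): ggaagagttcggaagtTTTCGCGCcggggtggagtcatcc
MCM6 (chr2:135876506-135876611, minus strand): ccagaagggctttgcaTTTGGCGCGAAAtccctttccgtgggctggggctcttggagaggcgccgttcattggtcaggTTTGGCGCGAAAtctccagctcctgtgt
MCM7 (chr7:100101383-100101422, minus strand): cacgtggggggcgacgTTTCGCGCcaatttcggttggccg
PCNA (chr20:5126658-5126697, minus strand): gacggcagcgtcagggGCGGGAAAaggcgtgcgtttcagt
TYMS (chr18:657598-657637, plus strand): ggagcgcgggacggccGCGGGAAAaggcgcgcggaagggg
UNG (chr12:109098093-109098132, plus strand): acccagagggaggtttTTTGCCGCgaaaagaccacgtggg

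All of these stretches lie in the promoter or across the start site of the named gene. In MCM2 and MCM6 matches on the 2 strands overlap in the letters GCGC, so that a run of capitals covers both, and MCM6 has 2 such runs. A match lay within 60 bases of a start site in 17 of the 19 genes, and the exceptions were MCM6, at 79 bases, and POLA1, at 130 bases. Matches were found for 7 of the 9 helicase genes with an entry and for 1 of the 4 genes of nucleotide supply, TYMS. A match is a description of the sequence and does not show that a factor binds there.

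**Figure D1:**
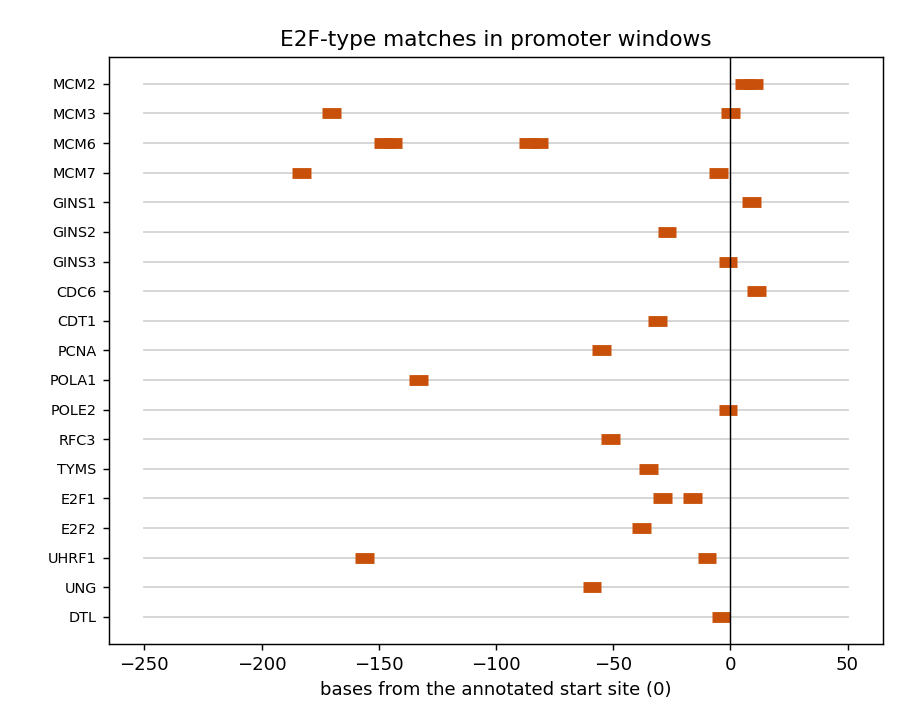
Position of E2F-type matches (orange bars) in the promoter windows (grey lines) of the 19 genes that hold one, with the distance in bases from the annotated start site at 0 on the horizontal axis; UHRF1 combines the windows of its 2 matching start sites. In 17 of the 19 genes a match lies within 60 bases of a start site.

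TK1 and RRM2 have no such match in their windows. Both carry the CCAAT box, the site of the factor NF-Y. The box was present in 22 of the 35 genes (62.9%) and in 42.1% of protein-coding genes. It is not particular to genes without an E2F-type match, and MCM6, PCNA and E2F1, among others, hold both. Here too a match does not show that a factor binds. The stretch shown holds 2 copies for TK1 and 3 for RRM2, in capitals for either strand.
TK1 (chr17:78187078-78187145, minus strand): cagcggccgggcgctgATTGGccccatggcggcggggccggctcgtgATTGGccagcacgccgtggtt
RRM2 (chr2:10122600-10122693, plus strand): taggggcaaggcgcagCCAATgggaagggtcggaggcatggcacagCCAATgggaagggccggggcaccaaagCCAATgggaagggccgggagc

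TTTGAA or TTCGAA, the letters of the CHR element known from genes of G2 and mitosis, occurred in 3 of the 35 genes (8.57%) and in 17.5% of protein-coding genes. The GC box GGGCGG was present in 26 of 35 (74.3%), against 64.3% of protein-coding genes. The E-box CACGTG occurred in 5 of 35 (14.3%), against 10.9% of protein-coding genes.

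Signals on the arrays are MAS5 values on a linear scale, with a trimmed mean of 500.1 on every array, medians of 58.9 to 59.8 with TCI04 against 64.0 to 74.3 with PBS, and Spearman correlations across probe sets of 0.931 to 0.938 between arrays of 1 group and of 0.93 to 0.94 across groups. The mesenchymal markers VIM and CD44 had signals of at least 26200 and 9520. CDH1 and PGR lay below the filter on dim probe sets on average. The proliferation marker MKI67 ranged from 1770 to 2020, with overlapping groups. A second one, TOP2A, measured 11275, 11090 and 11452 with TCI04, against 10494, 10758 and 10681 with PBS. For TOP2A every TCI04 array was above every PBS array, as for 6.66% of all genes. The log2 fold changes (TCI04 minus PBS) were -0.04 for MKI67 and 0.08 for TOP2A (limma, adjusted p = 0.922 and 0.718). ESR1 was dim (18.5 to 94.3), and ERBB2 and EPCAM gave signals of 400 to 525 and of 340 to 454. Of 8 measured markers of leukocytes, endothelium and fibroblasts, PTPRC, LYZ, CDH5, LUM and PDGFRA lay below the filter, and the others, CD3E, PECAM1 and DCN, did not exceed 191. TCI04 replicate 3 had a 3′ to 5′ signal ratio of ACTB of 3.33, against 1.71 and 1.7 in TCI04 replicates 1 and 2 and 1.64 to 1.72 with PBS. For GAPDH the ratio was 1.21 on that array, against 0.973 and 1.08 on TCI04 replicates 1 and 2 and 0.984 to 1.07 with PBS. Between the groups the ratios gave p = 0.3 for ACTB and p = 0.6 for GAPDH (exact permutation test, two-sided, smallest possible p 0.1), which does not test the single array.

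The comparison of TCI04 with PBS asked which transcripts differ after exposure to the compound. None of the 39 replication and G1/S genes differed past the threshold (limma, adjusted p under 0.05), and the smallest adjusted p among them was 0.697. In the full set of genes 1 of 13679 passed (0.00731%; 0.00305% of probe sets), the immediate-early gene FOS, which is not on the list. The log2 fold changes, given throughout as TCI04 minus PBS on a log2 scale of signal plus a constant of 10.96, ran from -0.31 for TK1 to 0.19 for CHAF1B. For 37 of the 39 genes, each by its brightest probe set, the whole 95% interval lay within a 1.5-fold change in either direction. It did so for 66.5% of all genes. For 24 of the 39 it lay within 1.2-fold, against 27.3% of all genes. The intervals themselves were narrower for the list, with a median half-width of 0.16 on the log2 scale against 0.28 for all genes. Even its dimmest gene, ORC1, had a mean signal of 321, far above the filter on dim probe sets near 33.9. How far brightness accounts for these shares was not tested.

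At an unadjusted p under 0.05 stood 1 of the 39 genes, TK1, which was lower with TCI04, against 7.05% of all genes (2.9% higher and 4.15% lower). The TCI04 and PBS arrays did not overlap for 3 of 39, or 7.69%, against 13.6% of all genes (6.66% higher and 6.92% lower). CCNE2 and UNG were above all PBS arrays on every TCI04 array, and GINS4 was below. A higher mean with TCI04 was found for 27 of the 39 (69.2%) and for 49.4% of all genes, with medians of 0.03 and -0.0025. Among the brighter genes left by a filter at the 60th percentile, 54.2% had a higher mean and the median was 0.01. This split depends on the scaling. With the arrays centred on the median of all probe sets 36 of 39 were higher with TCI04 (median 0.19), as were 77.9% of all genes (median 0.16). After quantile normalization the medians were 0.02 for the list and 0.02 for all genes, with 25 of 39 higher. With single arrays left out the count of higher genes ranged from 21 of 39 (without TCI04 replicate 2, when 50.7% of all genes were higher) to 26 of 39 (without PBS replicate 3), and it was 24 without TCI04 replicate 3. When probe sets were averaged per gene, 20 of 39 were higher, against 41.8% of all genes.

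**Figure D2:**
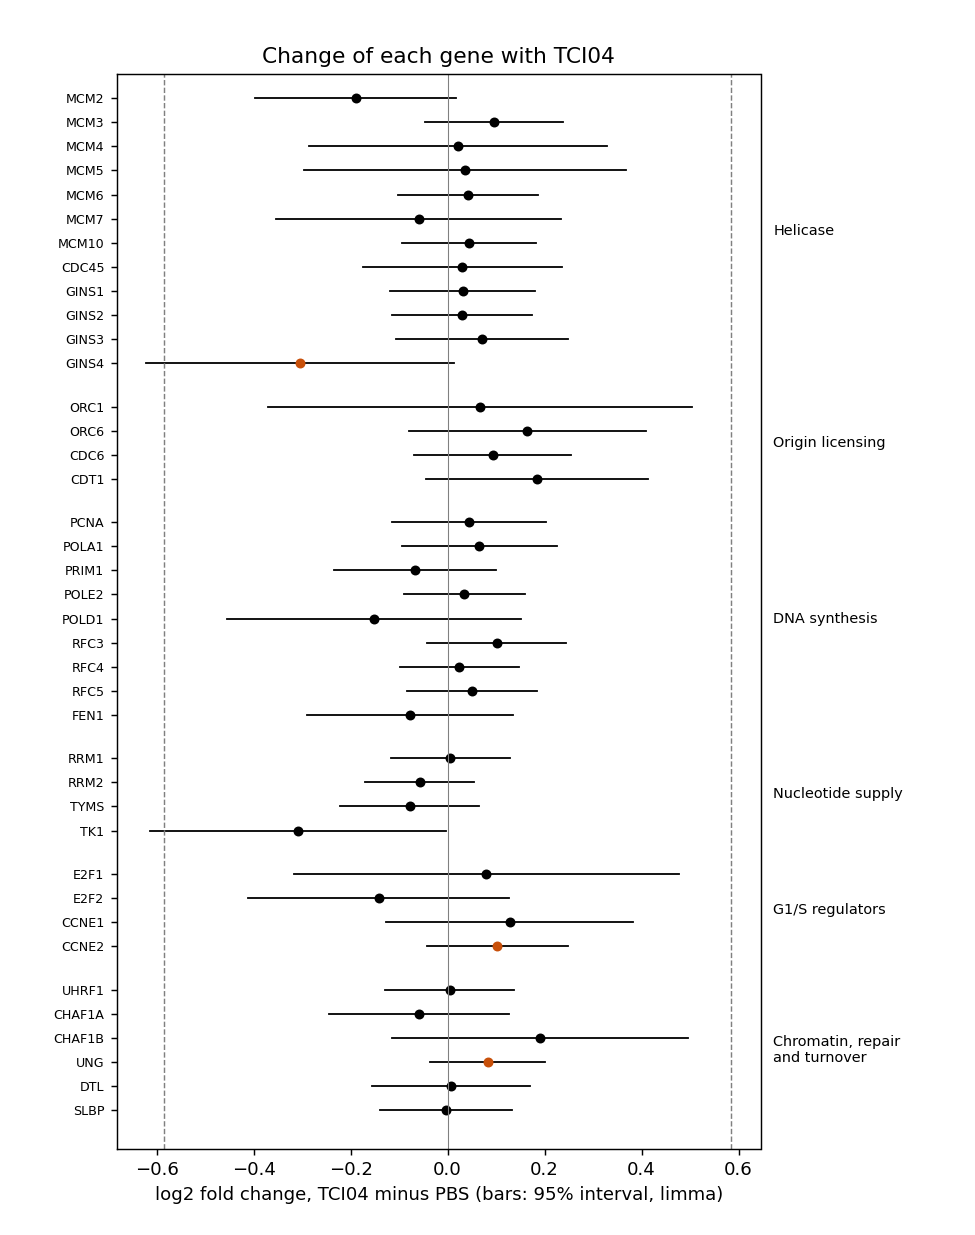
Log2 fold change of each of the 39 genes (points) with its 95% interval from limma (bars), grouped by role; dashed lines mark a 1.5-fold change and orange points the genes whose 3 TCI04 and 3 PBS arrays did not overlap. The intervals of TK1 and GINS4 alone reach past a dashed line, and that of TK1 alone leaves out 0.

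The helicase genes were at similar levels in the groups, and 9 of 12 had a higher mean with TCI04 (median 0.03). MCM3, a subunit of the ring, measured 7403, 6471 and 6662 with TCI04, against 6517, 6221 and 6438 with PBS. Only TCI04 replicate 2 fell among the PBS values. This gave a log2 fold change of 0.10, standard error 0.06 (limma, adjusted p = 0.734).

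MCM2 had the lowest log2 fold change of the ring subunits. It measured 2853, 2697 and 2242 with TCI04, against 2732, 3058 and 3068 with PBS. TCI04 replicate 3 was the lowest of the 6 arrays, and the groups overlapped. Its log2 fold change was -0.19 (95% interval -0.40 to 0.02, adjusted p = 0.697), and -0.09 without TCI04 replicate 3.

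GINS4, a subunit of the GINS complex that ties the polymerase to the helicase, measured 337, 362 and 255 with TCI04, against 381, 404 and 389 with PBS. All TCI04 arrays were below all PBS arrays, and TCI04 replicate 3 was again the lowest. The log2 fold change was -0.30 (95% interval -0.62 to 0.01, adjusted p = 0.697), and -0.16 without TCI04 replicate 3. The 2 other tested probe sets of GINS4 gave -0.40 and -0.11.

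The other subunits of the ring had log2 fold changes of 0.02 for MCM4, 0.04 for MCM5, 0.04 for MCM6 and -0.06 for MCM7. TCI04 replicate 3 was the lowest array for MCM4, MCM5 and MCM7, and without it their values were 0.21, 0.20 and 0.13. MCM10, which helps start the assembled helicase, stood at 0.04 and CDC45, a part of the active helicase, at 0.03. The remaining GINS subunits gave 0.03 for GINS1, 0.03 for GINS2 and 0.07 for GINS3.

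The genes of origin licensing all had a higher mean with TCI04, 4 of 4 with a median of 0.13, and none of them passed the test. CDC6, the ATPase that brings the helicase to the origin, measured 4433, 4452 and 4062 with TCI04, against 4250, 4206 and 3692 with PBS. TCI04 replicates 1 and 2 were above every PBS array and TCI04 replicate 3 was not. For CDC6 the log2 fold change was 0.09 (adjusted p = 0.768), and its other probe set gave -0.05.

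CDT1, which loads the helicase together with CDC6, measured 946, 905 and 877 with TCI04, against 764, 725 and 921 with PBS. PBS replicate 3 lay among the TCI04 values. For CDT1 the log2 fold change was 0.18 (95% interval -0.05 to 0.41, adjusted p = 0.705). Its other probe set pointed the other way, at -0.38, with TCI04 signals of 412, 359 and 223 and PBS signals of 405, 365 and 510.

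ORC6, a subunit of the origin recognition complex, measured 3642, 3727 and 4477 with TCI04, against 4149, 3278 and 3172 with PBS, a log2 fold change of 0.16 (adjusted p = 0.736). PBS replicate 1 was above TCI04 replicates 1 and 2. ORC1, the ATPase of the same complex, measured 290, 463 and 251 with TCI04, against 300.02, 302 and 323 with PBS. The 3 TCI04 arrays spread on both sides of the PBS arrays. Its log2 fold change of 0.07 was -0.18 without TCI04 replicate 2, the high array.

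**Figure D3:**
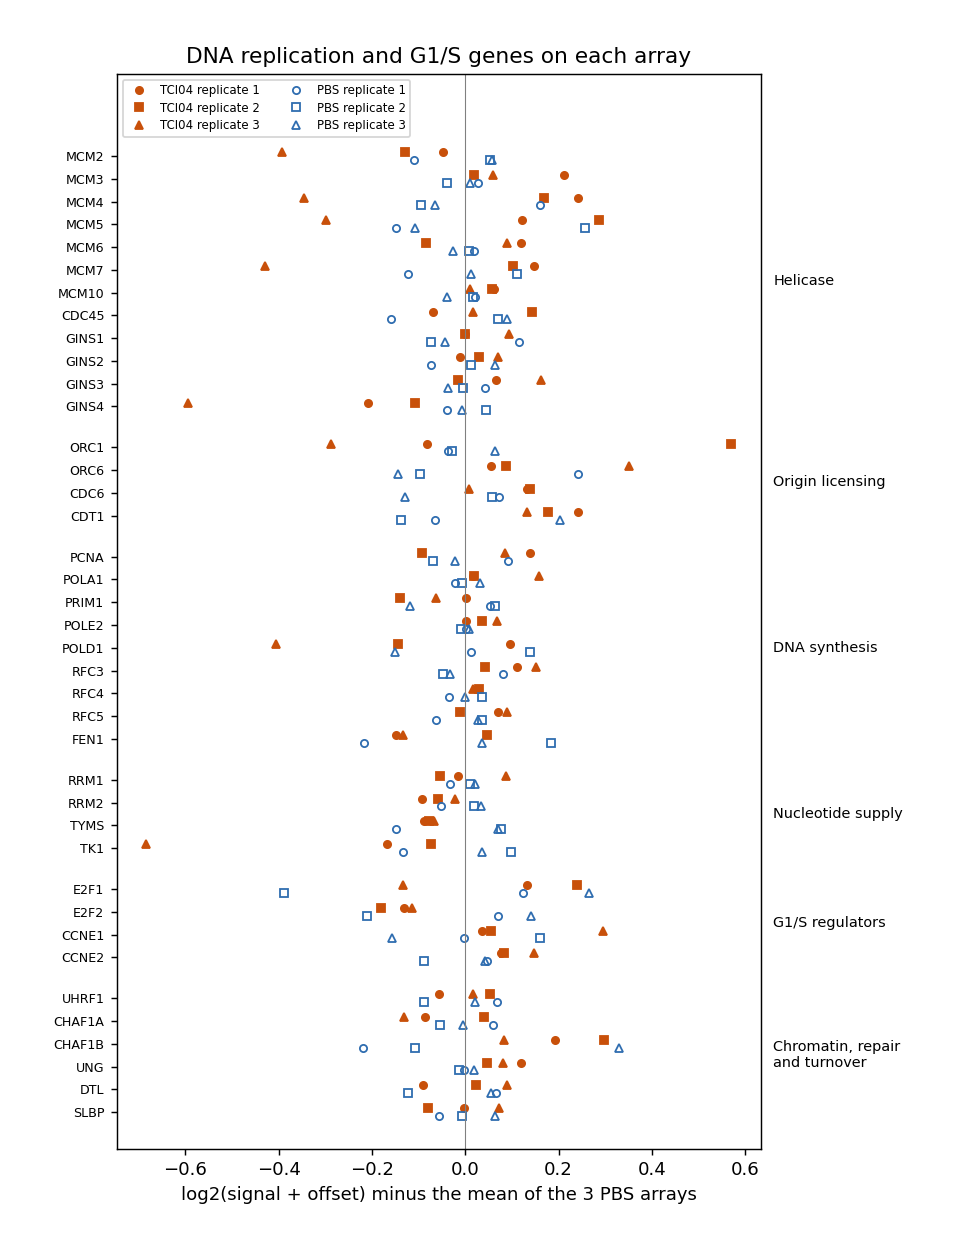
Each gene on each array, as log2(signal + offset) minus the mean of the 3 PBS arrays; filled orange symbols are TCI04 arrays and open blue symbols PBS arrays, with a shape for each replicate. For most genes the 2 groups overlap, and TCI04 replicate 3 (filled triangles) lies far to the left for TK1, GINS4, MCM7, POLD1 and MCM2.

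The genes of DNA synthesis varied little. PCNA, the sliding clamp, measured 13096, 11143 and 12609 with TCI04, against 12670, 11328 and 11703 with PBS, a log2 fold change of 0.04 (95% interval -0.11 to 0.20, adjusted p = 0.892). TCI04 replicate 1 was the highest array and TCI04 replicate 2 the lowest. RFC3, a subunit of the complex that loads the clamp, measured 3778, 3607 and 3888 with TCI04, against 3703, 3386 and 3420 with PBS. PBS replicate 1 lay among the TCI04 values, and the log2 fold change was 0.10 (adjusted p = 0.726), with its other probe sets at 0.05 and 0.18. The other clamp loader subunits gave 0.02 for RFC4 and 0.05 for RFC5. The catalytic subunit of polymerase alpha, POLA1, was at 0.07, the primase PRIM1 at -0.07, the polymerase epsilon subunit POLE2 at 0.03, the polymerase delta catalytic subunit POLD1 at -0.15 and the flap endonuclease FEN1 at -0.08. Leaving out single arrays moved POLD1 between -0.27 (without TCI04 replicate 1) and -0.02 (without TCI04 replicate 3). In total 6 of these 9 genes had a higher mean with TCI04.

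Of the enzymes of nucleotide supply, 3 of 4 had a lower mean with TCI04 (median -0.07), of which TYMS (0.08) and RRM2 (0.10) were higher after median centring. TK1, the thymidine kinase of dividing cells, measured 3119, 3327 and 2177 with TCI04, against 3193, 3751 and 3590 with PBS. TCI04 replicates 1 and 3 were below every PBS array, TCI04 replicate 3 by far, and TCI04 replicate 2 was not. Its log2 fold change was -0.31, standard error 0.14, with -0.61 and -0.0040 as the 95% bounds (limma, unadjusted p = 0.0476, adjusted p = 0.697). Without TCI04 replicate 3 it was -0.12 (adjusted p = 0.879), and the other probe set gave -0.18.

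TYMS, the thymidylate synthase, measured 23454, 23638 and 23799 with TCI04, against 22520, 26323 and 26200 with PBS. The TCI04 arrays were close together, and PBS replicate 1 was below them and the other PBS arrays above. For TYMS the log2 fold change was -0.08 (adjusted p = 0.78). RRM2, the small subunit of ribonucleotide reductase, measured 17305, 17722 and 18173 with TCI04, against 17812, 18685 and 18881 with PBS, a log2 fold change of -0.06 (adjusted p = 0.797). PBS replicate 1 lay among the TCI04 arrays, and the other PBS arrays were above them. RRM1, the large subunit of the same enzyme, measured 12757, 12412 and 13697 with TCI04, against 12606, 12993 and 13082 with PBS, a log2 fold change of 0.0058 (adjusted p = 0.984). The other probe set of RRM1 gave -0.11 (limma, adjusted p = 0.703). Its TCI04 signals of 3539, 3372 and 3412 were all below its PBS signals of 3804, 3685 and 3674.

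Among the regulators of G1/S, CCNE2, an E-type cyclin, measured 3078, 3088 and 3233 with TCI04, against 3012, 2745 and 3002 with PBS. Every TCI04 array was above every PBS array, the nearest pair being 3078 and 3012. For CCNE2 the log2 fold change was 0.10 (95% interval -0.04 to 0.25, adjusted p = 0.727), and the other probe set gave 0.07 with overlapping groups. CCNE1, the other E-type cyclin, had a log2 fold change of 0.13 (adjusted p = 0.799).

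E2F1, an activating E2F factor whose own promoter holds 2 of the matches shown above, measured 359, 388 and 297 with TCI04, against 357, 247 and 395 with PBS. The groups overlapped throughout, with a log2 fold change of 0.08 and a wide interval from -0.32 to 0.48 (adjusted p = 0.924). A second probe set of E2F1 gave -0.35, with TCI04 signals of 254, 291 and 228 and PBS signals of 356, 313 and 322 that did not overlap. E2F2, a second activating factor, measured 410, 396 and 415 with TCI04, against 473, 387 and 497 with PBS, a log2 fold change of -0.14 (adjusted p = 0.789). PBS replicate 2 was below all TCI04 arrays and the other PBS arrays above them.

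The genes that act on chromatin, repair and protein or histone turnover in S phase had a median log2 fold change of 0.0058, with 4 of 6 higher. UHRF1, which carries DNA methylation through replication, measured 10483, 11316 and 11042 with TCI04, against 11439, 10255 and 11063 with PBS. The groups overlapped fully, at a log2 fold change of 0.0045 (95% interval -0.13 to 0.14). UNG, the uracil DNA glycosylase, measured 6786, 6457 and 6611 with TCI04, against 6234, 6187 and 6327 with PBS. All TCI04 arrays were above all PBS arrays, and the log2 fold change of 0.08 (95% interval -0.04 to 0.20, adjusted p = 0.729) was small. The subunits of the histone chaperone CAF-1 gave -0.06 for CHAF1A and 0.19 for CHAF1B. With single arrays left out CHAF1B lay between 0.08 (without PBS replicate 1) and 0.35 (without PBS replicate 3). DTL, the receptor through which CDT1 is marked for degradation, was at 0.0071, and SLBP, which binds the stem-loop of histone mRNA, at -0.0034.

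The genes with and without an E2F-type match were both centred near 0. With a match, 15 of 19 had a higher mean with TCI04 and the median log2 fold change was 0.04, and without one, 9 of 16 did, with a median of 0.015. This difference was not tested.

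The choice of probe set decided the sign for many genes, on the list and beyond it. Of 75 probe sets annotated with a listed gene alone, 71 passed the filter on dim signals, 39 of them the representatives and 32 others. Of the 32 others, 25 had a lower mean with TCI04 (78.1%) and 7 a higher one, with a median of -0.09, but after median centring 13 of 32 were lower and the median was 0.07. The same count over the other probe sets of all genes was 59.4% lower, with a median of -0.04. Of the 22 listed genes with several tested probe sets, 11 had probe sets of both signs, as did 4152 of 6859 genes in all.

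None of the 32 passed the adjusted threshold in limma, and 5 stood at an unadjusted p under 0.05, against 7.08% of all probe sets. The groups did not overlap for 8, of which 5 were lower and 3 higher, where 13.5% of all probe sets did not overlap. MCM10 had probe sets in both directions. One measured 1595, 1779 and 1661 with TCI04, against 1456, 1367 and 1358 with PBS, a log2 fold change of 0.27 (unadjusted p = 0.00514). A second measured 1269, 1475 and 1346 with TCI04, against 1702, 1656 and 1498 with PBS, a log2 fold change of -0.25 (unadjusted p = 0.0152). The representative probe set lay between them, at 0.04.

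MCM4 and MCM5 were among the other genes whose brightest probe set differed in sign from a dimmer one. So were GINS2, GINS3, RFC5, RRM1 and E2F2. A dimmer probe set of MCM4 measured 717, 637 and 252 with TCI04, against 729, 767 and 728 with PBS, a log2 fold change of -0.59. One of MCM5 measured 404, 457 and 303 with TCI04, against 470.1, 583 and 491 with PBS, a log2 fold change of -0.41. In both the TCI04 arrays were below all PBS arrays and TCI04 replicate 3 was the lowest. The remaining dimmer probe sets of MCM4 that were tested gave -0.21 and -0.08, with overlapping groups. The 4 probe sets of CHAF1A were all lower with TCI04, from -0.45 to -0.06, and the 3 of RFC3 all higher.

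TCI04 replicate 3 moved with this pattern. The median of the 32 other probe sets, as a difference from the PBS mean, was -0.03, -0.05 and -0.20 on TCI04 replicates 1, 2 and 3, against -0.02, 0.03 and 0.0024 on the PBS arrays. For the other probe sets of all genes the TCI04 values were -0.03, -0.02 and -0.05, against 0.04, -0.01 and -0.02 with PBS. Without that array, 22 of 31 tested had a lower mean and the median was -0.06. It is also the array with the high 3′ to 5′ ratio of ACTB, and the part of RNA quality in these values was not tested. Among the representative probe sets the same array was the lowest of the 6 for 9 genes and the highest for 12 (19.1% and 26.2% of all genes), and the list medians on the arrays were 0.03, 0.03 and 0.02 with TCI04, against -0.0020, -0.0041 and 0.02 with PBS.

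**Figure D4:**
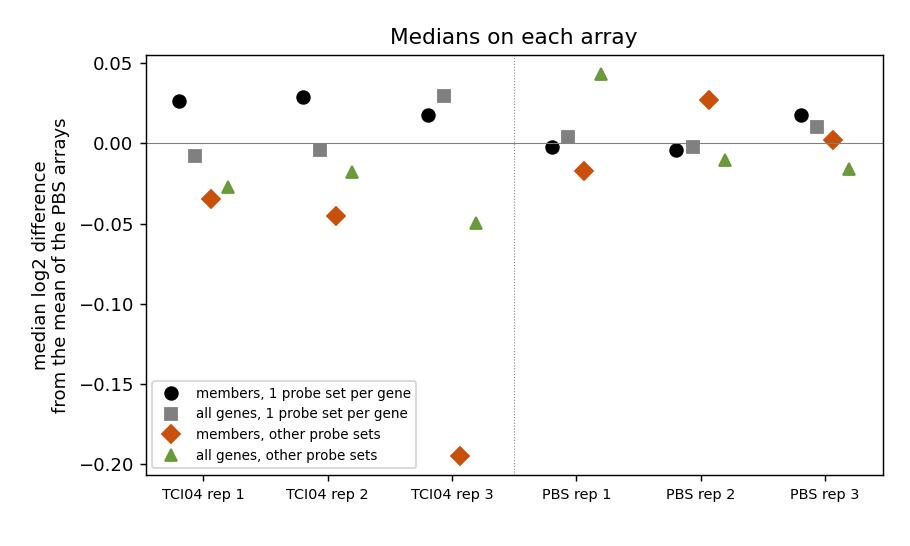
Median log2 difference from the mean of the PBS arrays on each array, for the representative probe sets of the 39 genes (black circles) and of all genes (grey squares), and for the other probe sets of the 39 genes (orange diamonds) and of all genes (green triangles). The other probe sets of the listed genes lie at -0.20 on TCI04 replicate 3 and between -0.05 and 0.03 on the remaining arrays.

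**Figure D5:**
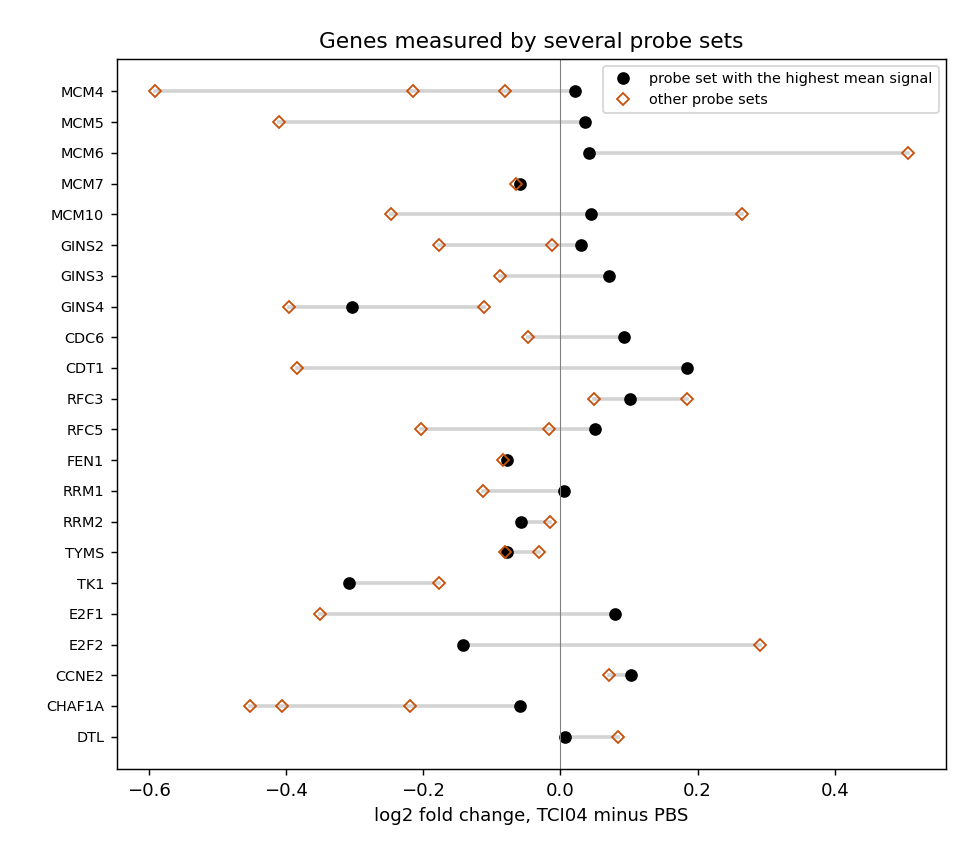
Log2 fold change of every tested probe set of the 22 genes with more than 1; black circles are the probe sets with the highest mean signal and open orange diamonds the others, joined by a grey line per gene. The widest spans are those of MCM4, CDT1 and MCM10, each of which crosses 0.

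Further genes of the same pathway were also measured. Of 59 listed replication and G1/S genes outside the 39, 58 were measured, 27 with a higher and 31 with a lower mean with TCI04, and the median was -0.0046. None passed (limma), and 5 stood at an unadjusted p under 0.05, against 7.05% of all genes. The groups did not overlap for 7 of 58 (12.1%), all lower with TCI04, where 13.6% of all genes did not overlap and 6.92% were lower.

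RECQL4, a helicase that takes part in the start of replication, measured 388, 269 and 436 with TCI04, against 584, 665 and 562 with PBS. All TCI04 arrays were below all PBS arrays. The log2 fold change was -0.73 (95% interval -1.10 to -0.37, unadjusted p = 0.00111, adjusted p = 0.697), and its other probe set gave 0.05. The ligase LIG1, which seals Okazaki fragments, gave -0.24 (unadjusted p = 0.0488), and E2F4, a repressive E2F factor, -0.25 (unadjusted p = 0.0265), both without overlap between the groups. CUL4A, the scaffold of the ligase that uses DTL, gave 0.25 (unadjusted p = 0.0328) with overlapping groups, and its other probe sets gave 0.01 and -0.06. The polymerase delta subunit POLD4 gave 0.43 (unadjusted p = 0.0461), also with overlapping groups.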

How the data were processed

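RNA of 6 samples was measured on Affymetrix arrays, 3 with TCI04 and 3 with PBS, grouped by their labels. The deposited values are intensity values per probe set on a linear scale, made with MAS5 per the submitters' processing notes; its version was not given in the sources used here. From the values, the authors' intensity data had been scaled per array to a common trimmed mean. Of 54675 probe sets, 41091 have 1 gene symbol in the platform annotation, 1801 several and 11783 none or are controls.

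Before fitting, 10.96 (the 20th percentile of the table) was added to each signal and log2 taken, which understates fold changes of dim probe sets. Controls were dropped, as were probe sets whose mean log2 value fell under the 40th percentile, near a signal of 33.9, and 32746 remained. A linear model was fitted to all of them with limma 3.58.1 in R 4.3.3 (eBayes with a variance trend, two-sided), with Benjamini-Hochberg adjustment and a threshold of 0.05. Unadjusted p-values come from the same fit. Intervals of 95% used 10.5 degrees of freedom. The number of arrays limits the precision. The steps were tested on simulated data.

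The genes and lists were chosen with earlier results of these data known. All 39 genes are named. Array values are given for the 6 with the smallest p in each direction, the 3 brightest and 3 dimmest, the brightest of each role, and for probe sets that differ within a gene, which were chosen after their values were seen. Correlations of same-numbered arrays' deviations were 0.00356, 0.0619 and 0.0498, and those of differently numbered arrays ran from -0.0608 to 0.0092. No strong pairing by number was evident, though 3 arrays per group cannot exclude a weak one.

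The alternatives changed the normalization, the offset, the filter, the choice of probe set or the variance model, weighted the arrays, blocked on replicate number, or left out 1 array.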

Additional observations from a re-analysis of the deposited data

Results flagged for a closer look

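The flag took up only probe sets of listed genes that do not represent a gene and were higher on every TCI04 array than on any PBS array. Of the 32 tested, 3 were, and 5 were lower on every TCI04 array. Among all tested probe sets 13.5% did not overlap, in either direction. The 3 higher ones are dimmer probe sets of MCM6, with a log2 difference of 0.5071 (TCI04 signals of 182, 153 and 158, PBS signals of 143, 97.1 and 101), of MCM10, with 0.2653, and of DTL, with 0.0837. The representative probe sets of these genes gave 0.04, 0.04 and 0.0071. None of the 3 passed the adjusted threshold in limma. Groups of 3 arrays are too small to look for single outlying arrays by gap tests.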

How the results depend on the processing

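None of the 39 genes was called in any of 19 alternatives (smallest adjusted p 0.28, with median centring), nor was any of the other replication and G1/S genes, and 14 of the 39 kept 1 sign throughout. Centring over the tested probe sets was added after the data were seen. The median of all genes was 0.1572 with arrays centred on the median of all probe sets and 0.0578 with centring over the tested ones. The list median was then 0.1907 and 0.0914, in both cases 0.0336 above that of all genes, against 0.0162 after quantile normalization (0.0003 above) and 0.0045 when probe sets were averaged per gene (20 of 39 higher). With median centring 36 of 39 had a higher mean and 77.9% of all genes did, and 13 of the 39 stood at an unadjusted p under 0.05. The share of all genes under 0.05 was not counted in that setting, so the 13 are not a result about the list. Once _x_at and _s_at probe sets were dropped, 17 of 29 measured genes had a higher mean. With the replicate number as a block, 27 of 39 were higher and 0 were called (smallest adjusted p 0.538).

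The 1 probe set called lower over the whole table went to 0 with median centring and in eBayes without trend, and leaving out 1 array gave 0 to 1, the call being lost without TCI04 replicate 1 or 2 or PBS replicate 1, 2 or 3.

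Signs turned as follows, with the cause not tested. With median centring POLD1 gave 0.008, E2F2 0.0174, TYMS 0.0813, FEN1 0.0817, PRIM1 0.0932, MCM7 0.1001, CHAF1A 0.1003, RRM2 0.102 and SLBP 0.1563. With centring over the tested probe sets MCM7 gave 0.0007, CHAF1A 0.001, RRM2 0.0026 and SLBP 0.0569. After quantile normalization DTL gave -0.0119 and RFC4 -0.0004. With array weights DTL gave -0.008, CDC45 -0.0112, RRM1 -0.015 and MCM7 0.011. When probe sets were averaged per gene, GINS3 gave -0.0088, GINS2 -0.0531, RRM1 -0.0534, RFC5 -0.0569, CDT1 -0.1001, E2F1 -0.1357, MCM5 -0.187, MCM4 -0.2162 and E2F2 0.0742. Without _x_at and _s_at probe sets CDC6 gave -0.0479, GINS2 -0.1769, MCM4 -0.2147 and MCM5 -0.4103.

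With single arrays left out the sign turned for 14 genes. The values ranged from -0.0883 to 0.2058 for MCM4, from -0.0887 to 0.2041 for MCM5, from -0.1631 to 0.1251 for MCM7, from -0.0497 to 0.0796 for CDC45, from -0.0055 to 0.0891 for GINS1, from -0.0075 to 0.0613 for GINS2, from -0.1848 to 0.2436 for ORC1, from -0.0041 to 0.1123 for PCNA, from -0.187 to 0.0135 for FEN1, from -0.0349 to 0.036 for RRM1, from -0.1146 to 0.2123 for E2F1, from -0.04 to 0.0387 for UHRF1, from -0.0537 to 0.056 for DTL and from -0.041 to 0.0348 for SLBP.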
